A study of Arabidopsis thaliana with 6 samples.

Results

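The 10 genes described here encode the enzymes that write, maintain and remove cytosine methylation in Arabidopsis thaliana. They were picked by their locus identifiers from the 30457 features listed in each library. No measured value entered that rule, but the genes were chosen with earlier results of these data known. They are the methyltransferase genes MET1, CMT2, CMT3, DRM1 and DRM2, the chromatin remodeller gene DDM1, and the demethylase genes ROS1, DME, DML2 and DML3. Poly(A) RNA came from ovules at the FG1 to FG3 stages, when the embryo sac begins to form, from 3 libraries of the wild type and 3 of the sgd mutant. Both genotypes were in the qrt1 background, a mutation that keeps pollen grains in tetrads, and plants grew in a greenhouse with 16 h light and 8 h dark at 22 °C. The sources used here do not name the locus mutated in sgd or the number of lines. The design text gives about 6000 ovules without saying whether that is per library, and no label states that the libraries of a genotype are from different plants. The p-values thus reflect only how far these libraries scatter, a scatter that may be technical.

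Plants methylate cytosine in the sequence contexts CG, CHG and CHH, where H is any base but G. MET1 copies CG methylation onto the new strand after replication, CMT3 keeps CHG methylation and CMT2 much of CHH methylation in a loop with histone H3 lysine methylation, and DRM2, with its close relative DRM1, adds methylation de novo where small RNAs guide it. DDM1 opens heterochromatin to these enzymes. ROS1, DME, DML2 and DML3 are DNA glycosylases that cut methylated cytosine out of DNA, and DME is best known from the central cell of the embryo sac, where it activates imprinted genes.

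Values are FPKM, fragment counts scaled by transcript length and by mapped fragments, so levels can be compared between genes on this scale. Where 3 values are given for a genotype they are those of libraries 1, 2 and 3, in that order. Depth estimated from the steps between low values was between 13300000 and 40100000 fragments per library, and each sgd library was shallower than the wild-type library of the same number. Within each genotype library 1 stood apart: summed FPKM was 528715 and 561173 in wild-type and sgd library 1 and between 750410 and 796250 in the other libraries. Ovule markers were present in all libraries, with the ovule identity gene STK at 341 FPKM or more in wild type and 114 FPKM or more in sgd. SPL, a regulator of sporocyte fate, reached 1.39 FPKM in wild type and was listed at 0.07, 0 and 0 FPKM in sgd.

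The promoter sequences of 6 of these genes are given, since a promoter can hold the letters that regulators of replication and stress genes bind. Of the 6, MET1, CMT3, DDM1 and ROS1 had lower means and DRM2 and DML2 higher means in sgd. These directions do not set the 6 apart. DRM1 also had a lower mean, and CMT2, DME and DML3 higher means, and their sequences are not printed. Each sequence is the 250 bases before the annotated gene start, 5′ to 3′ on the gene's own strand, from RefSeq assembly TAIR10.1. The submitters' processing notes name TAIR10 and the files hold no coordinates, so the sequences describe the reference and not these plants. The windows are chr5:26648647-26648896 on the plus strand for DDM1, chr2:15314808-15315057 on the minus strand for ROS1, chr5:4718705-4718954 on the minus strand for DRM2, chr3:3088551-3088800 on the minus strand for DML2, chr5:19931864-19932113 on the plus strand for MET1 and chr1:26253688-26253937 on the minus strand for CMT3. Capitals mark matches to E2F-type letters, known from genes of DNA replication (TTTCCCGC, TTTGGCGC or TTCCCGCC), and to the abscisic acid response letters ACGTGTC, on either strand.
DDM1: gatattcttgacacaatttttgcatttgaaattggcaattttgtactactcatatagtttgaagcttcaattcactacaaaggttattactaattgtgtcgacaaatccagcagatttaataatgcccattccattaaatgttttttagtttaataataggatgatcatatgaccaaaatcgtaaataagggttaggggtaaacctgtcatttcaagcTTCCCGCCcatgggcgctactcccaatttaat
ROS1: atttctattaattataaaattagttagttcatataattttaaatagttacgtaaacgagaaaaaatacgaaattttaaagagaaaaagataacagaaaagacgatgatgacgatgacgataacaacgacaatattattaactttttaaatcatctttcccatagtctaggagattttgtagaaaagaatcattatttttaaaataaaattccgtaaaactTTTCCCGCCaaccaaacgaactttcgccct
DRM2: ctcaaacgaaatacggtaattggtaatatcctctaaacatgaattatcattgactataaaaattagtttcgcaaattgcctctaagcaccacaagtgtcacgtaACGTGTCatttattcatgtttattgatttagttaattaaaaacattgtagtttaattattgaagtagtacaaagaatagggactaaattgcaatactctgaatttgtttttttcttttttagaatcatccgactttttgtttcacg
DML2: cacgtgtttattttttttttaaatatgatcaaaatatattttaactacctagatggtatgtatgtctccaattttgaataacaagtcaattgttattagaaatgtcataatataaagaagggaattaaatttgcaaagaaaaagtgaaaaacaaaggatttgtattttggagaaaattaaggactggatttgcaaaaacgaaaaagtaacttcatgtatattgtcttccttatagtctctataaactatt
MET1: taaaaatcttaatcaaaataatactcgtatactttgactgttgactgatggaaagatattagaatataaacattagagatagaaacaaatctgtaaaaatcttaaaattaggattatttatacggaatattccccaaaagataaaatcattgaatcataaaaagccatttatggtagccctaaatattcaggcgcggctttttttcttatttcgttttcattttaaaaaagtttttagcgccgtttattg
CMT3: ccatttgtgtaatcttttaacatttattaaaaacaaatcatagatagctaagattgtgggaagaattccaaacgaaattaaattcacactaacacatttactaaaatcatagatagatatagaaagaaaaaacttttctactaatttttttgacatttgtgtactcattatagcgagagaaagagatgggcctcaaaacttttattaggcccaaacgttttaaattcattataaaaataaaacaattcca

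Of these windows, DDM1 held TTCCCGCC beginning 32 bases before the gene start, and ROS1 held TTTCCCGC and the overlapping TTCCCGCC, beginning 30 and 29 bases before the start. Any of the 3 E2F-type strings stood in 329 of 27443 promoters of this length and in 8 of 17 promoters of a list of DNA replication genes. MET1 and CMT3 had no such letters in the window, and neither did the other 6 genes. ACGTGTC stood in DRM2, beginning 146 bases before the start, and in CMT2, on the opposite strand, beginning 33 bases before it, and in 3.68% of all such promoters. DML2 held none of the 4 strings. A match is a string of letters, not a bound site.

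In TAIR10.1 the genes that passed the test described here lie at chr5:4715105-4718704 on the minus strand (DRM2), chr3:3081735-3088550 on the minus strand (DML2) and chr5:19932114-19938470 on the plus strand (MET1), and no other annotated gene overlaps any of the 10.

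In wild-type ovules the genes kept the same order in all 3 libraries. CMT3 was the highest at 68.9 ± 12.6 FPKM, followed by MET1 at 45.7 ± 7.36, DDM1 at 37.9 ± 5.92, ROS1 at 26.9 ± 1.997, DME at 21.7 ± 0.514, DRM2 at 12.8 ± 1.87, CMT2 at 7.71 ± 0.436, DML2 at 6.73 ± 0.658 and DRM1 at 3.17 ± 1.67 FPKM (mean ± SD, n = 3). MET1 and DDM1 were the only neighbours in that order whose ranges over the 3 libraries overlapped. DML3 measured 0.03, 0.04 and 0.02 FPKM in wild type, against 0.01, 0 and 0.15 in sgd, an estimated 6.39 fragments at most, and was not tested. In the sgd libraries the order broke up: DRM2, at rank 6 in wild type, was the highest of the 10 in sgd library 1 and at rank 3 in sgd libraries 2 and 3. MET1, at rank 2 in wild type, was at ranks 7, 4 and 5 in sgd.

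**Figure D1:**
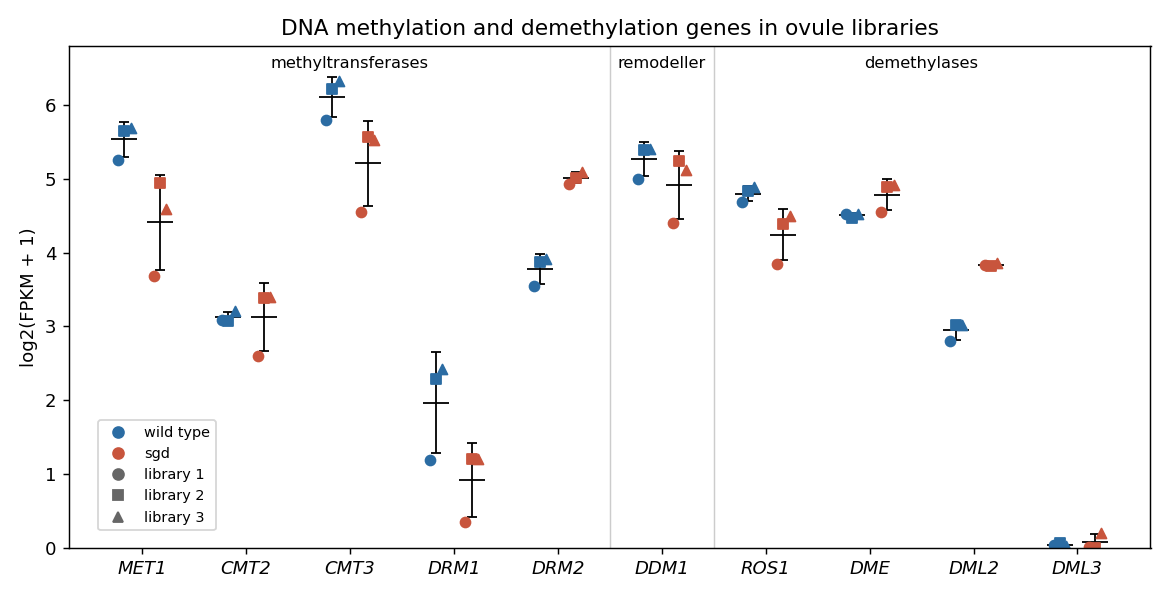
Level of each gene as log2(FPKM + 1) in wild-type (blue) and sgd (red) libraries, with marker shapes for libraries 1, 2 and 3, bars for the mean and lines for ± SD on that scale (n = 3). DRM2, DML2 and DME were higher in every sgd library than in any wild-type library, DME only narrowly in sgd library 1. MET1, CMT3 and ROS1 were lower in every sgd library than in any wild-type library.

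The test was limma on all features averaging 1 FPKM or more, fitted together on log2(FPKM + 1), with a Benjamini-Hochberg adjusted p under 0.05 as the threshold. Of the 9 members tested, DRM2 and DML2 were higher in sgd and MET1 was lower. Among all 18100 tested features 13.3% were higher and 4.47% lower, 17.8% in all, so 3 of 9 members came from a background in which many genes differ. The groups did not overlap for 6 members, 3 higher and 3 lower in sgd, against 26.8% and 8.80% of all tested features (35.6% in either direction). The median change of the 9 members was -0.35 on the log2 scale and that of all tested features 0.13. Without sgd library 1 these medians were -0.087 and 0.297, and without wild-type library 1 they were -0.48 and -0.03. Median-ratio scaling moved the median of all features to -0.02, and changes of members shift with it by about that difference.

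DRM2 (AT5G14620), the main de novo methyltransferase, showed the largest rise among the members. It measured 10.7, 13.6 and 14.1 FPKM in wild type, against 29.6, 31.4 and 33.2 in sgd. Every sgd library lay far above every wild-type library, and both groups varied little. The mean was 2.45 times as high in sgd. On the log2 scale the rise was 1.24 (SE 0.24, limma adjusted p = 0.00609), or 1.11 above the median of all features. Between an estimated 587 and 1540 fragments lay behind each value. The call held under each of the 16 alternatives run. In bulk RNA, a change in the number of cells of a type and a change in RNA per cell cannot be told apart.

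The other member of the pair, DRM1 (AT5G15380), was scarce and lay on the opposite side. It measured 1.27, 3.89 and 4.36 FPKM in wild type, against 0.27, 1.3 and 1.31 in sgd, the lowest with an estimated 11.7 fragments. Wild-type library 1 lay within the sgd range and the other wild-type libraries above it. The log2 change was -1.05 (SE 0.40, limma adjusted p = 0.106), which did not pass, and with the replicate number as a block it did (adjusted p = 0.0194), as it did without wild-type library 1 (adjusted p = 0.0443). DRM1 averaged 0.96 FPKM in sgd and passed the filter through wild type, so these passes are given as values and not as support for a fall. With a pseudocount of 0.1 the change was -1.69 (limma adjusted p = 0.117). Within a library DRM2 exceeded DRM1 by 8.39, 3.51 and 3.23 times in wild type and by 109.6, 24.1 and 25.3 times in sgd, a ratio that a single scaling factor per library does not alter.

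MET1 (AT5G49160), the CG maintenance enzyme, measured 37.3, 49.3 and 50.7 FPKM in wild type, against 11.9, 29.9 and 23.1 in sgd. All sgd libraries lay below all wild-type libraries, and sgd library 1 was the lowest. The log2 change was -1.13 (SE 0.34, limma adjusted p = 0.0468), and with the replicate block the adjusted p was 0.0134. The call was lost without wild-type library 1, 2 or 3 or sgd library 1 or 3 (adjusted p between 0.0638 and 0.134), while the change stayed between -1.40 and -0.77.

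CMT3 (AT1G69770), the CHG methyltransferase, also stood lower in each sgd library. It measured 54.8, 73.2 and 78.8 FPKM in wild type, against 22.3, 46.4 and 44.9 in sgd, again with no overlap. The log2 change was -0.90 (SE 0.34) and did not pass in the fit without a block (limma adjusted p = 0.0978), but passed with the replicate block (adjusted p = 0.0129) and with median-ratio scaling (adjusted p = 0.00391). Without sgd library 1 the change was -0.57. The ratio of MET1 to CMT3 within a library was 0.666 ± 0.0201 in wild type and 0.563 ± 0.0699 in sgd (SD, n = 3). The related CMT2 (AT4G19020) measured 7.51, 7.41 and 8.21 FPKM in wild type, against 5.03, 9.45 and 9.50 in sgd, so that the sgd values lay on both sides. Its log2 change was 0.0018 (SE 0.28, limma adjusted p = 0.998), and its sign changed with the scaling.

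DDM1 (AT5G66750), the remodeller, measured 31.0, 41.1 and 41.4 FPKM in wild type, against 20.03, 36.8 and 33.8 in sgd. The groups overlapped, since sgd libraries 2 and 3 lay above wild-type library 1. Its difference in log2 units was -0.35 (SE 0.30, limma adjusted p = 0.502), not called with the block (adjusted p = 0.0779) but called with median-ratio scaling, where it was -0.50 (adjusted p = 0.0149). Without sgd library 1 it was -0.087, and without both replicate 1 libraries -0.22. The ratio of MET1 to DDM1 within a library was 1.21 ± 0.0131 in wild type and 0.696 ± 0.110 in sgd (SD, n = 3), with no overlap.

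**Figure D2:**
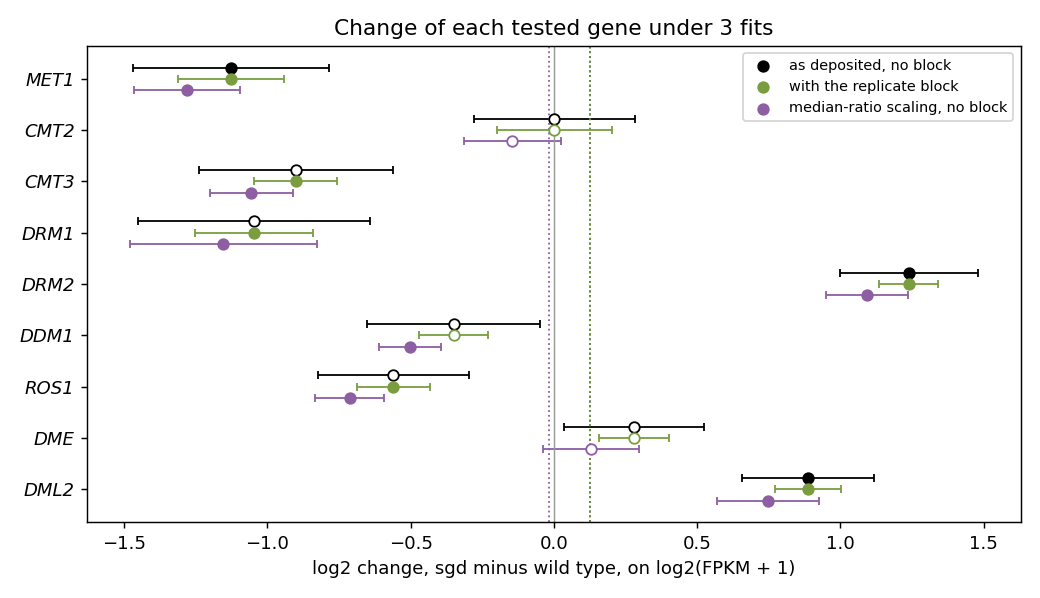
Log2 change of the 9 tested genes, sgd minus wild type, on log2(FPKM + 1), with SE, as deposited (black), with the replicate number as a block (green) and with median-ratio scaling (purple). Filled points passed the limma threshold and dotted lines mark the median change of all features. DRM2, DML2 and MET1 are filled in all 3 fits, and CMT3, DRM1 and ROS1 with the block and the scaling, and DDM1 with the scaling.

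The make-up of the methyltransferase pool differed between the genotypes, given here as values with no test. Summed over the 5 genes, the level was 111, 147 and 156 FPKM in wild type and 69.1, 118 and 112 FPKM in sgd libraries 1, 2 and 3, with overlap. DRM2 held 9.56%, 9.25% and 9.03% of that sum in wild type and 42.8%, 26.5% and 29.6% in sgd. MET1 held 33.1% ± 0.569 in wild type and 20.998% ± 4.03 in sgd, and CMT3 49.8% ± 0.681 and 37.2% ± 4.25 (SD, n = 3). The ratio of MET1 to DRM2 was 3.50, 3.61 and 3.60 in wild-type libraries and 0.401, 0.952 and 0.695 in sgd libraries 1, 2 and 3, so that the transcript of the de novo enzyme exceeded that of the maintenance enzyme per length in each sgd library and in none of the wild type.

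**Figure D3:**
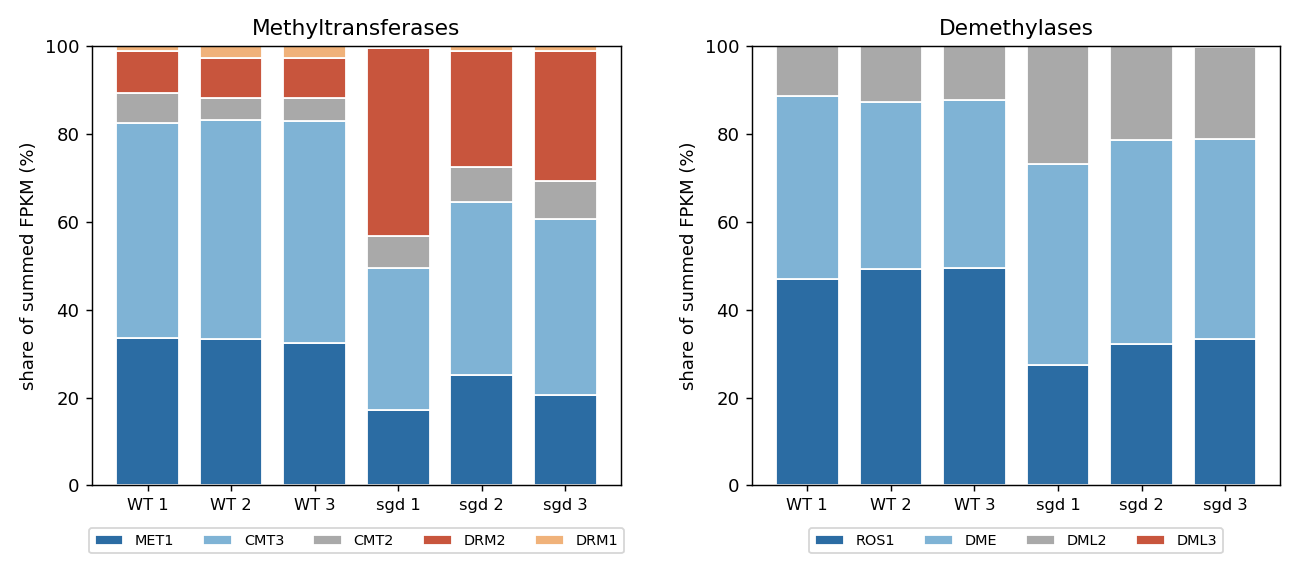
Share of each gene in the summed FPKM of the 5 methyltransferase genes (left) and of the 4 demethylase genes (right) in each library (WT, wild type). The DRM2 band widened from at most 9.56% to at least 26.5%, and the DML2 band from at most 12.8% to at least 20.9%.

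Among the demethylases, DML2 (AT3G10010) was higher in sgd. It measured 5.97, 7.11 and 7.11 FPKM in wild type, against 13.2, 13.1 and 13.5 in sgd. The groups lay far apart, and the SD of the sgd values was 0.174 FPKM (n = 3). The rise was 0.89 in log2 units (SE 0.23, limma adjusted p = 0.0233), a 1.97-fold higher mean. The call was lost without wild-type library 2 or 3 or sgd library 2 or 3 (adjusted p between 0.0786 and 0.109), with the change between 0.81 and 0.92.

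ROS1 (AT2G36490), the main demethylase of vegetative tissue, lay on the opposite side. It measured 24.7, 27.5 and 28.6 FPKM in wild type, against 13.4, 19.9 and 21.5 in sgd, with no overlap. The log2 change was -0.56 (SE 0.26, limma adjusted p = 0.186), which did not pass, and it passed with the replicate block (adjusted p = 0.0275) and with median-ratio scaling (adjusted p = 0.00711). Without sgd library 1 it was -0.36. In leaf tissue ROS1 transcript is known to fall when RNA-directed or CG methylation is lost. Methylation was not measured in these RNA libraries, and a link between the levels of MET1 and ROS1 was not tested. Both genes stood lower in all sgd libraries. The ratio of MET1 to ROS1 was 1.51, 1.79 and 1.77 in wild type and 0.888, 1.499 and 1.08 in sgd.

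DME (AT5G04560), the glycosylase of the central cell, did not pass the test. It measured 22.0, 21.1 and 22.0 FPKM in wild type, against 22.4, 28.6 and 29.3 in sgd, where sgd library 1 exceeded the highest wild-type library by less than the wild-type spread. In log2 units its change was 0.28 (SE 0.24, limma adjusted p = 0.507). It passed without both replicate 1 libraries (change 0.41, adjusted p = 0.0148), and in that fit 3 members were higher and 4 lower, against 31.4% of all features higher and 17.1% lower. The change of DME was 0.13 with median-ratio scaling and 0.085 with quantile normalization. Demethylase FPKM summed to 55.4 ± 2.54 in wild type and 58.3 ± 8.23 in sgd (SD, n = 3), while ROS1 held 48.5% ± 1.45 of it in wild type and 31.0% ± 3.23 in sgd. ROS1 exceeded DME in every wild-type library, by 1.123 to 1.3003 times, and stood at 0.597 to 0.734 of it in sgd.

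The blocked fit called 2 members higher and 4 lower, against 26.5% of all features higher and 14.3% lower (40.8% in all). Median-ratio scaling called 2 higher and 5 lower, against 19.2% and 18.7% (38.0% in all). Across all features that scaling gave 3477 higher and 3393 lower calls in place of 2407 and 809, and rescaling to equal totals gave 4135 and 2628.

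The level of MET1 was also set beside that of DNA replication genes, since MET1 works on newly replicated DNA. Of 17 genes of a replication list, 6 were lower in sgd, against 4.47% of all features, none was higher, against 13.3%, and 11 did not pass. The median change was -1.12, against 0.13 for all features. TSO2, a ribonucleotide reductase subunit, and the licensing factor CDC6 had changes of -1.42 and -1.14 (SE 0.36 and 0.32, limma adjusted p = 0.0214 and 0.0339). With the replicate block 15 of the 17 fell, against 14.3% of all features, and with median-ratio scaling 17 did, against 18.7%. With no filter 0 passed in limma, with 11 at an unadjusted p under 0.05, against 717 of 25168 features lower. Leaving out wild-type library 2 or 3 left 0 calls (11 at an unadjusted p under 0.05 in each case), against 407 and 420 lower among all 18100 features. Leaving out wild-type library 1 or sgd library 3 left 1, against 758 and 578 among all features. Leaving out sgd library 1 left 3, against 806, and leaving out sgd library 2 gave 13, against 968. The mean level of the list was 34.6, 50.2 and 54.0 FPKM in wild type, against 10.6, 30.8 and 24.6 in sgd, and MET1 was 1.08, 0.981 and 0.939 times that mean in wild type and 1.12, 0.969 and 0.938 times it in sgd. MET1 therefore stood at about the same multiple of the replication mean in all 6 libraries. CMT3 stood at 1.5003 ± 0.0716 times the mean in wild type and 1.81 ± 0.303 in sgd, and DDM1 at 0.828 ± 0.0651 and 1.49 ± 0.364 (SD, n = 3). 

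**Figure D4:**
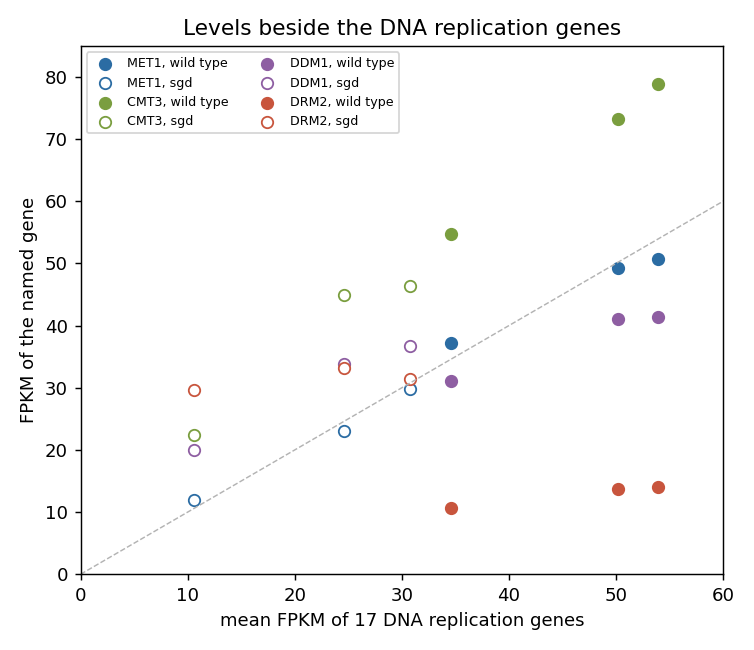
FPKM of MET1, CMT3, DDM1 and DRM2 against the mean FPKM of the 17 DNA replication genes in each wild-type (filled) and sgd (open) library, with the dashed line of equal values. MET1 lies near that line in both genotypes, at 0.938 to 1.12 times the mean, whereas DRM2 lies above 29 FPKM in sgd and below 15 FPKM in wild type.

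Partners of maintenance were mostly not called. Of 11 tested genes 1 was lower, against 4.47% of all features, and 10 did not pass. The lower gene was VIM1, which reads hemimethylated CG sites and brings MET1 to them. The list median was -0.15 and turned to 0.087 without sgd library 1. VIM1 measured 39.7, 66.6 and 64.7 FPKM in wild type, against 16.2, 32.6 and 29.4 in sgd, below all wild-type values (log2 change -1.12, SE 0.34, limma adjusted p = 0.0454). Its call was lost without wild-type library 2 or 3 or sgd library 1 or 3 (adjusted p up to 0.158), and when low features were kept (0.0766). VIM3, from the same family, averaged 23.4 ± 5.54 FPKM in wild type and 12.99 ± 4.57 FPKM in sgd (SD, n = 3) and did not pass (limma adjusted p = 0.104). SUVH4, the histone methyltransferase that works with CMT3, measured 22.6, 33.0 and 35.0 FPKM in wild type, against 18.5, 32.7 and 32.5 in sgd (limma adjusted p = 0.838). Among MSI1 and RBR1, known as repressors of MET1 in the female gametophyte, neither passed (limma adjusted p = 0.618 and 0.607). With the replicate block VIM1 and VIM3 fell, against 14.3% of all features lower in that fit, and no other gene of this list was called.

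Genes of RNA-directed DNA methylation, the pathway that guides DRM2, showed 1 higher and none lower in limma among 21 tested of 23 (4 at an unadjusted p under 0.05), against 13.3% and 4.47% of all features, with a median change of 0.24. Below the filter were AT5G20420, at 0.62 FPKM at most, and CLSY1. CLSY1 measured 0.82, 0.99 and 1.42 FPKM in wild type, against 0.3, 0.3 and 0.17 in sgd. With no filter CLSY1 was lower (limma adjusted p = 0.0199), against 717 of 25168 features. DRM3, a catalytically inactive relative of DRM2 that aids it, measured 6.52, 7.33 and 7.74 FPKM in wild type, against 12.9, 15.9 and 19.0 in sgd. The groups lay apart (log2 change 1.03, SE 0.25, limma adjusted p = 0.0165), and the call was lost without wild-type library 2 or 3 or sgd library 2 or 3 (adjusted p up to 0.0925). DRD1, a remodeller that helps RNA polymerase V onto DNA, averaged 20.4 ± 5.004 FPKM in wild type and 38.1 ± 6.77 in sgd (SD, n = 3; limma adjusted p = 0.0572), and AGO6, an Argonaute that holds the guiding small RNAs, 8.82 ± 1.34 in wild type and 5.22 ± 1.45 in sgd (SD, n = 3; limma adjusted p = 0.122). CHR31 (AT1G05490), a chromatin remodelling gene, measured 96.6, 97.7 and 102 FPKM in wild type, against 157, 148 and 158 in sgd, without overlap, and did not pass (limma adjusted p = 0.157). AGO9, an Argonaute of the ovule, was the most abundant of the list, at 999 ± 137 FPKM in wild type and 883 ± 258 in sgd (SD, n = 3, limma adjusted p = 0.816). With the replicate block 7 of the 21 rose (NRPD2, DRD1, CHR31, IDN2, DRM3, SPT5L and SUVH9) and AGO6 fell, against 26.5% of all features higher and 14.3% lower in that fit. Median-ratio scaling gave 3 rises and 3 falls among the 21, against 19.2% of all features higher and 18.7% lower.

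Partners of demethylation showed 2 higher and none lower in limma among 13 (2 at an unadjusted p under 0.05), about the share of all features called higher (13.3%), with a median change of 0.02 that turned to -0.13 with median-ratio scaling. They were MBD7, which binds methylated DNA and brings an anti-silencing complex, with 39.6 ± 3.55 FPKM in wild type and 76.3 ± 17.7 in sgd (SD, n = 3; limma adjusted p = 0.0498), and AT4G36050, annotated as an endonuclease/exonuclease/phosphatase family protein, with 10.7 ± 2.45 in wild type and 19.9 ± 2.54 in sgd (SD, n = 3; limma adjusted p = 0.0479). Both calls lie close to the threshold and were lost when any library but sgd library 1 was left out (adjusted p up to 0.231 for MBD7 and 0.178 for AT4G36050). LIG1, the ligase that closes the repaired strand, did not pass (limma adjusted p = 0.396) and fell with the block (adjusted p = 0.0256), as did AT3G48425, annotated as a DNAse I-like protein (adjusted p = 0.0396). In the blocked fit 2 of the 13 were lower and 2 higher, against 14.3% of all features lower and 26.5% higher. Of 5 other genes of the methyltransferase families, DNMT2, known mainly for methylating transfer RNA, ran from 8.11 to 13.8 FPKM over the 6 libraries and did not pass (log2 change -0.03, limma adjusted p = 0.960). AT4G08990 ran from 1.11 to 1.59 FPKM and did not pass either (limma adjusted p = 0.943), and CMT1, DMT2 and MEE57 reached 1.6, 0.37 and 0.02 FPKM at most.

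**Figure D5:**
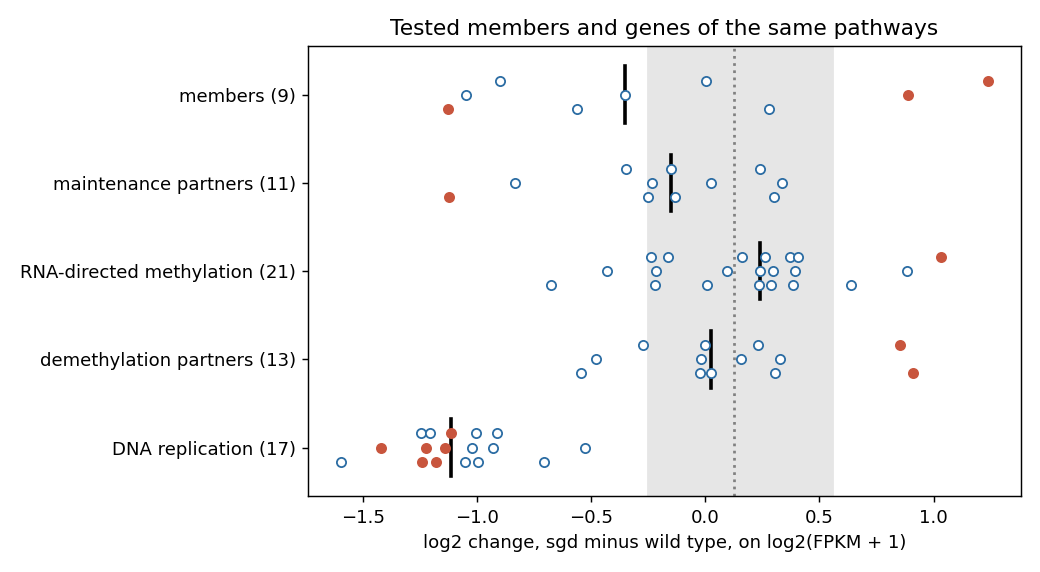
Log2 change, sgd minus wild type, of each tested gene in 5 groups, with filled points for genes past the limma threshold, black bars for group medians, a dotted line for the median of all 18100 tested features (0.13) and a grey band from their lower to their upper quartile (-0.25 to 0.56). All 17 replication genes lie below 0, and DRM2, DML2 and MET1 are the filled points among the members.

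Genes known to be silenced or opened by cytosine methylation were nearly all below the filter. Of 11 such genes only EPF2 and QQS averaged 1 FPKM or more. EPF2, a peptide gene of stomatal patterning whose promoter ROS1 keeps free of methylation in leaves, measured 4.45, 6.59 and 7.59 FPKM in wild type, against 0.06, 0 and 0 in sgd. EPF2 passed the filter through wild type, so no call is given for it. QQS, a starch-related gene prone to epigenetic silencing, measured 2.47, 1.84 and 1.84 FPKM in wild type, against 44.9, 5.85 and 15.4 in sgd (limma adjusted p = 0.0109), and its call was lost without wild-type library 1 (adjusted p = 0.0594). It also failed to pass under median-ratio scaling, under quantile normalization and with low features kept, where the adjusted p was 0.0524. FWA, a homeobox gene held silent by methylated promoter repeats and activated by DME in the central cell, was listed with 0.03, 0 and 0.02 FPKM in wild type, against 0.62, 1.23 and 1.53 in sgd. MEA, a Polycomb gene that DME also activates, measured 0.25, 0.31 and 0.17 FPKM in wild type, against 2.76, 0.81 and 1.19 in sgd. FWA was at 0.03 FPKM or less in wild type, so no call is given for it. With no filter MEA did not pass (limma adjusted p = 0.0582). Also below the filter, FIS2 averaged 0.137 FPKM in wild type and 0.26 in sgd. MPC, PHE1, HDG3 and HDG9 averaged 0.03 FPKM or less in wild type, and 0.48, 0.253, 0.497 and 0.197 in sgd. SDC and AT4G18650 reached 0.08 and 0.07 FPKM at most. None of these passed with no filter.

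Summed seed coat markers and summed pollen and sperm markers differed between the genotypes without overlap. Those of the embryo sac and of the ovule and integument overlapped. The part of any of these markers in the members' differences was not tested. Summed FPKM of 6 seed coat markers was 2.57 to 2.82 in wild type and 192 to 431 in sgd. The 5 of them that were tested averaged under 1 FPKM in wild type and passed the filter through sgd, so no count of calls is given. Summed FPKM of 8 pollen and sperm markers was 9.88 to 19.99 and 60.1 to 132. VGD1, AGP6 and AGP11, genes of the pollen grain and tube, were higher among 5 tested, against 13.3% of all features. Of the other markers of that list, GEX1 and MGH3 had higher means in sgd, 2.32 against 0.84 FPKM and 0.683 against 0.153 FPKM, GEX2 and HAP2 had lower means, 0.863 against 2.14 FPKM and 0.287 against 1.16 FPKM, and DUO1 reached 0.21 FPKM at most. GEX1 averaged under 1 FPKM in wild type and GEX2 in sgd. Each passed the filter through the other genotype, so no call is given for them. Summed FPKM of 7 embryo sac markers was 23.1 to 38.9 and 9.56 to 24.6. EC1.1 averaged 4.70 FPKM in wild type and 0.913 in sgd, EC1.2 2.41 and 0.0633, and EC1.4 11.8 and 12.0. EC1.1 and EC1.2 passed the filter through wild type, so no call is given for them. None of the other tested markers of that list passed. Summed FPKM of 9 ovule and integument markers was 816 to 1526 and 582 to 1005, with ANT and BEL1 of 8 tested lower, against 4.47% of all features. With the block STK and KAN4 were also lower and SHP1 was higher (limma adjusted p = 0.00456, 0.0325 and 0.00874). In that fit 14.3% of all features were lower and 26.5% higher. No marker of these lists was at 0 in all 6 libraries.

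Likeness of pattern is given as a description. The root-mean-square difference of log2(FPKM + 1) over the 6 libraries, with each gene's mean taken off, was 0.149 between MET1 and CMT3, 0.158 between ROS1 and DDM1 and 0.186 between DRM2 and DML2, and 1.23 between MET1 and DRM2. Outside the family, the most like MET1 were AT1G65710, the protein kinase gene NP3 and AT1G54385, at 0.0463 to 0.0602. The most like DRM2 were EDA40, AT1G52870 and COX19-2, at 0.0189 to 0.0383. The most like ROS1 were AT5G12930, TAF12 and AT4G39380, at 0.0471 to 0.0610, and the most like DME were RLP1, XLOC_002599 and DCAF1, at 0.0422 to 0.0489. With 18100 features and 6 libraries such close matches describe the pattern only.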

How the data were processed

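Poly(A) RNA of 6 ovule libraries was sequenced. The authors deposited FPKM values, rounded to 2 decimals, and the file headers name that unit. CASAVA, cutadapt 1.15, TopHat2 2.1.1, RSEM and DESeq2 appear as tools, and TAIR10 as build, per the submitters' processing notes, which do not say what each tool did. No source used here states whether counting used strand, and no annotated gene overlaps a member in TAIR10.1. Names came from RefSeq, which matched 98.1% of identifiers and all 10 members by symbol and locus.

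Features with a mean of at least 1 FPKM (18100) entered a two-sided limma test (limma 3.58.1, R 4.3.3) on log2(FPKM + 1), with eBayes variances following an intensity trend and p adjusted by Benjamini-Hochberg over all of them. Fold changes on that scale understate changes of low genes. Depth was estimated by fitting the size of 1 fragment and the fragment length to values of at most 0.25 FPKM in genes of 600 to 1500 bases with 1 transcript and no annotated UTR, and between 94.3% and 97.9% of the values that rounded to 4 fragments or fewer then lay within 0.2 of a whole number, an agreement the fit itself maximised. Fragments behind a value are estimates from that fit and the longest annotated transcript.

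All members are named, and from each list up to 4 tested genes with the smallest p and those past the threshold in the pathway lists. For MET1, DRM2, ROS1 and DME the 3 most alike features are named. Other names were chosen after their values were seen. Members, lists and promoter strings were chosen with earlier results of these data known. Wild-type and sgd libraries with the same number in their titles deviated together from their genotype means, with r over features of 0.524 (number 1), 0.2365 (number 2) and 0.377 (number 3). Each exceeded 0.1, and on that ground the number was tried as a block. Wild-type library 2 went more closely with sgd library 3 (0.354), and wild-type library 3 with sgd library 2 (0.431), than with the sgd library of its own number. These r values thus do not establish pairing, no label states it, and blocked calls rest on assuming it. Blocked values stand beside the members whose call they change and beside such list genes, except those that passed the filter through 1 genotype. For the replication genes they are given as counts. The fit as reported has no block. Alternatives were another pseudocount, 2 other filters, 3 scalings, the block, eBayes without a trend and leaving out libraries.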

Additional observations from a re-analysis of the deposited data

How the results depend on the processing

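DRM2 passed under each of the 16 alternatives, with a change between 1.05 and 1.31, and DML2 under 12. With single libraries left out, called members numbered 1 to 2 higher and 0 to 1 lower, all features 1535 to 3496 higher and 407 to 968 lower, the MET1 change ran from -1.40 to -0.77, the DML2 change from 0.81 to 0.92, the CMT2 change from -0.13 to 0.27, the CMT3 change from -1.08 to -0.57, the ROS1 change from -0.68 to -0.36 and the DDM1 change from -0.51 to -0.087. MET1 did not pass with no filter (change -1.13, limma adjusted p = 0.0833) or with eBayes without a trend (change -1.13, adjusted p = 0.0514), so that 0 members were lower by limma in these fits (6 and 5 members were at an unadjusted p under 0.05 in either direction). Lower members numbered 5 with equal totals, median-ratio scaling, quantile normalization or the replicate block with median-ratio scaling, and 4 with the replicate block or without both replicate 1 libraries. All features numbered 4135 higher and 2628 lower with equal totals, 3393 lower with median-ratio scaling, 3726 lower with quantile normalization, 4793 higher and 2583 lower with the replicate block, 3661 lower with the replicate block and median-ratio scaling, and 5690 higher and 3097 lower without both replicate 1 libraries. Beyond these and the calls given in the report, the replicate block changed no call of a member. CMT2, never called, reversed to -0.0047 with a pseudocount of 0.1, -0.068 with equal totals, -0.14 with median-ratio scaling with or without the block, and -0.24 with quantile normalization. The related enzymes DNMT2 and AT4G08990, never called, reversed to 0.11 and 0.045 without both replicate 1 libraries, and ran from -0.15 to 0.20 and from -0.10 to 0.043 with single libraries left out. The log2 difference between the genotypes in summed methyltransferase FPKM was -0.50, and -0.65 to -0.25 over the scalings and left-out libraries tried. That in summed demethylase FPKM was 0.065 and changed sign, to -0.0050 with equal totals, -0.091 with median-ratio scaling and -0.011 without sgd library 3. The cause of these shifts was not tested. Depth limits DML3, at an estimated 6.39 fragments or fewer, and DRM1 in sgd library 1, and these estimates cover counting error only.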
